A study of Sus scrofa with 30 samples.

Results

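Plasma protein and acute phase genes of the liver were followed, 10 in all. They were albumin (ALB, ENSP00000295897), transthyretin (TTR, ENSP00000237014), transferrin (TF, ENSP00000385834) and the fibrinogen chains FGA (ENSP00000306361), FGB (ENSP00000306099) and FGG (ENSP00000336829). The others were hemopexin (HPX, ENSP00000265983), C-reactive protein (CRP, ENSP00000255030), the alpha-1-microglobulin and bikunin precursor (AMBP, ENSP00000265132) and complement component 3 (C3, ENSP00000245907). They were picked by the human protein identifiers that name the rows of the authors' table, with earlier results of these data known. Of the 10 genes, 9 had a row among the 19864 rows of that table, and TF was not analysed here for want of a row. Liver RNA of 30 adolescent female pigs was hybridised to Agilent arrays with a single dye, 1 pig per array, in 10 groups of 3. The letter N marks pigs born at a normal weight of 1.4 to 1.6 kg and U those born light, at 0.8 to 1.1 kg, and all were weaned at day 28. At the first time point (T1) the groups N_T1 and U_T1 had not yet been split by feeding. At the second (T2), restricted pigs (NR_T2 and UR_T2) had received 50% of the ad libitum intake for 3 weeks, and control pigs (NK_T2 and UK_T2) had not been restricted. At the third (T3), the groups NK_T3, NR_T3, UK_T3 and UR_T3 had all been fed ad libitum for 5 further weeks. The sample labels place the time points at days 76, 97 and 103 and the text of the series at days 75, 98 and 131, and the names T1, T2 and T3 are used instead. Each group of 3 pigs measures the spread between pigs only as far as these pigs represent it. The p-values below refer to that spread, pooled over all groups of a fit.

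Hepatocytes make most proteins of blood plasma. In inflammation, cytokines such as interleukin-6 raise the hepatic synthesis of positive acute phase proteins, among them CRP, fibrinogen, C3 and hemopexin, while that of negative ones such as albumin, transthyretin and transferrin declines. Fibrinogen is a hexamer built from pairs of its Aα, Bβ and γ chains, which the separate genes FGA, FGB and FGG encode in a cluster.

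Each of the 9 rows followed the median of 3 probes of 60 bases with consecutive numbers on the array. For FGG 2 of the 3 are shown, because FGG had the largest fitted change of the 9 rows, and all 3 of FGA and 2 of C3, because these rows stood apart on 1 slide and their strand is in doubt. They are printed in lower case, 5′ to 3′ as the array files list them.
FGG PigEx0022141: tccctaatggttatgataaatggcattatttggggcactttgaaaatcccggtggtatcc
FGG PigEx0022142: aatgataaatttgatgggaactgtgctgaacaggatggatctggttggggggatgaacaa
FGA PigEx0023009: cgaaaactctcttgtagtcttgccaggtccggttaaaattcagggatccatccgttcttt
FGA PigEx0023010: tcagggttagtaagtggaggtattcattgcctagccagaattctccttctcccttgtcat
FGA PigEx0023011: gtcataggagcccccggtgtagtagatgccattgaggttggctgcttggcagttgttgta
C3 PigEx0021721: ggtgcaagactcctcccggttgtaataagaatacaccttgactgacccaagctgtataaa
C3 PigEx0021722: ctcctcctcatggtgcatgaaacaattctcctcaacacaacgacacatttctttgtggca
The rows of FGG and C3 followed a single probe, PigEx0022141 and PigEx0021721, on all 30 arrays, and the FGA row followed PigEx0023009 on 15 arrays, PigEx0023011 on 13 and PigEx0023010 on 2. Which strand of the transcript a probe matches is not given in the sources used here, nor which form or part of the transcript. As listed, the C3 probe PigEx0021721 had a stop codon in every reading frame, and its reverse complement had 3 frames without one. Of the 27 member probes, 20 had an open frame on both strands, 5 only on the reverse complement (2 of C3 and 1 each of TTR, FGB and AMBP), 1 only as listed (FGB PigEx0025024) and 1 on neither, a count that settles no strand for most members. By their general likeness to the known coding sequences, which no file used here could check, the FGA, HPX and C3 probes appear to be listed on the strand opposite to the coding one, and those of FGG on the coding one. If that is so, the FGA, HPX and C3 rows may not measure these transcripts, and every FGA and C3 value below is the signal of those probes under that limit. Levels are therefore not compared between genes.

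Of the 27 probes behind the 9 rows, 23 were well above background on all 30 arrays, among them all probes of ALB and TTR, the liver's defining plasma proteins. The C3 probe PigEx0021723 was well above background on 17 arrays. HPX, the heme-binding protein, was not measured: its 3 probes were well above background on 2, 0 and 0 arrays, and its row lay between 2.6 and 5.3 in intensity on all 30 arrays. No fold is given for it. In liver RNA as a whole, fewer cells of a type and less RNA per cell cannot be told apart.

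Values could be compared only within 4 sets of arrays, because the authors' columns share a distribution only within each. These were all T1 arrays, all T3 arrays and, at T2, the N and the U arrays separately. The 3 columns labelled N_T1 held the arrays of the same group in rotated order, which leaves the group unaffected. The arrays had 6 slides and 4 scans, and 53.6% to 74.3% of the probes of an array were well above background. A single array and a single slide touch the T3 results. Replicate 1 of NK_T3 was the only array of scan 3. It had 55.0% of probes well above background, and UR_T3 replicate 2 had fewer, at 53.6%. Its 94 outlier spots were the most of any array, with 89 on NR_T2 replicate 3. Slide 6, the only one of scan 4, held replicate 3 of each T3 group and no other array.

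On NK_T3 replicate 1, 5 of the 9 rows were the lowest of the 12 T3 arrays, where 16.3% of all rows were. ALB read 75948, 4-fold below the median of the other T3 arrays, TTR 63786, 4.44-fold below, and C3 103, 5.38-fold below. The fibrinogen chains FGB and FGG read 20576 and 7229, 9.06-fold and 14.5-fold below. FGA, at 286, was not the lowest, and CRP and AMBP lay above the median of the other T3 arrays. In the scanner files, relative to each array's 75th percentile, all 3 AMBP probes were the lowest of the 12 T3 arrays on this array. They lay at -1.87, -0.98 and -0.70 on the log2 scale from the median of the other arrays. The FGA and CRP probes were not lowest there. The share of all probes that were lowest on that scale was not counted. The place of AMBP on this array thus depends on the scaling. Probes of 1 gene disagreed in size there, with -4.03, -2.38 and -0.67 for ALB and -3.55, -3.80 and -1.37 for FGG.

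**Figure D1:**
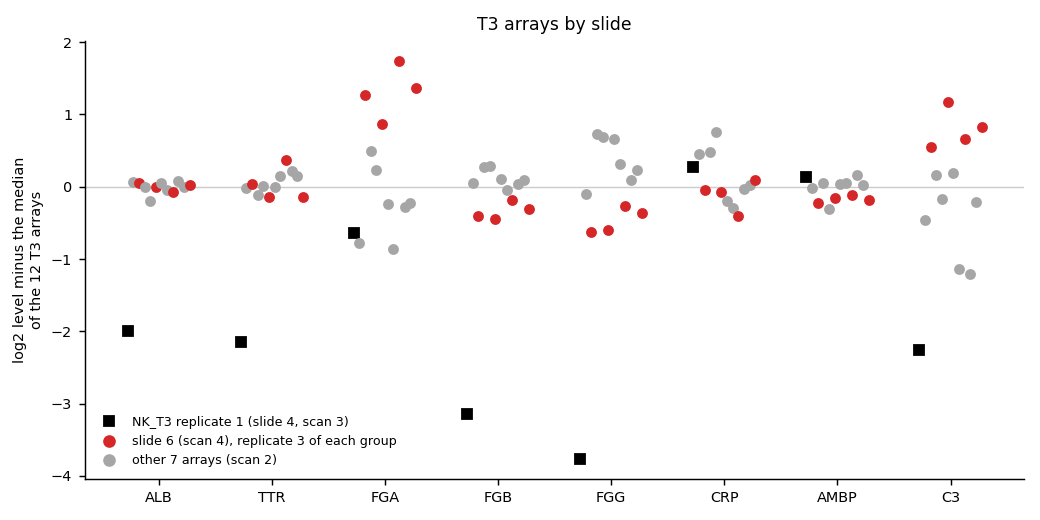
Log2 level of 8 rows on each of the 12 T3 arrays, minus the median of the 12 arrays (vertical axis), with NK_T3 replicate 1 as black squares, the 4 arrays of slide 6 in red and the other 7 in grey. FGA and C3 lie higher on slide 6 than on every other T3 array, and the black square lies lowest for ALB, TTR, FGB, FGG and C3.

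On slide 6, FGA read 816 to 1486, above the 243 to 626 of the 8 other T3 arrays, and C3 read 720 to 1116, above their 103 to 560. These are 2 of the 9 rows, and 18.8% of all rows had no overlap between slide 6 and the others. With NK_T3 replicate 1 left out, FGB also separated, at 133947 to 159563 on slide 6 against 176988 to 221775 elsewhere, and FGG at 63690 to 81891 against 91937 to 162129. Mean log2 levels on slide 6 then differed from those of the other 7 arrays by 1.55 for FGA, 1.21 for C3, -0.45 for FGB and -0.84 for FGG. That made 4 of 9 rows, beside 22.3% of all rows. ALB, TTR, CRP and AMBP overlapped between slide 6 and the other arrays. Since each T3 group had 1 array on slide 6, that slide enters every T3 group alike, but the other slides do not. The other NK pigs lay on slide 4, the other NR pigs on slide 3, those of UK on slides 3 and 4 and those of UR on slides 5 and 4. Outside slide 6, a difference between NR and NK thus cannot be told apart from one between slides 3 and 4. Values with the slide as a block or within a slide are given beside the comparisons.

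Albumin, the main carrier and osmotic protein of plasma, varied by at most 1.11-fold between the pigs of a group at T1 and T2. At T1, ALB read 281320, 289994 and 312644 in N pigs and 330260, 306949 and 306949 in U pigs. At T2 it read 267268, 277465 and 286354 in NK, 300160, 315226 and 290326 in NR, 276615, 289326 and 289326 in UK and 259446, 279133 and 287730 in UR. Every NR pig thus lay above every NK pig at T2 on the authors' scale, while UR and UK overlapped. At T3, ALB read 75948, 316070 and 313460 in NK, 301133, 263223 and 302233 in NR, 314969, 293534 and 289798 in UK and 319842, 303468 and 306415 in UR. Except for the 1 low NK pig, the T3 values spanned 263223 to 319842, and every UR pig lay above every NR pig.

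Transthyretin carries thyroid hormone and, with retinol-binding protein, vitamin A. TTR read 245000, 284132 and 251935 in N and 232637, 270023 and 259083 in U at T1, and the groups overlapped. At T2 it read 231901, 250375 and 213313 in NK, 225516, 267954 and 220297 in NR, 216072, 233127 and 243040 in UK and 216072, 219969 and 209664 in UR. Neither pair of groups separated. At T3 the values were 63786, 278922 and 290758 in NK, 259891, 283267 and 256071 in NR, 281172, 314969 and 365548 in UK and 327084, 311457 and 257046 in UR. The NK pig on the array of scan 3 was again the only one far below the rest.

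FGB, the Bβ chain of fibrinogen, read 188336, 182128 and 199841 in N and 216856, 186948 and 165245 in U at T1. At T2 it read 141975, 192911 and 139861 in NK, 145148, 159362 and 156936 in NR, 138963, 129665 and 104951 in UK and 127649, 118191 and 124182 in UR. The restricted pigs lay within the range of their controls. At T3 FGB read 20576, 187319 and 136875 in NK, 219207, 221775 and 133947 in NR, 196249, 176988 and 159563 in UK and 186372, 193188 and 146203 in UR. In every T3 group but NK the pig on slide 6 was the lowest of the 3.

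FGG, the γ chain, read 109801, 111513 and 128385 in N and 132855, 92938 and 90108 in U at T1. At T2 the values were 73755, 114794 and 92485 in NK, 81751, 91468 and 91802 in NR, 67287, 73886 and 65061 in UK and 70910, 62622 and 72004 in UR, with overlap in both pairs. At T3 FGG read 7229, 91937 and 63690 in NK, 162129, 157638 and 64781 in NR, 154566, 122369 and 81891 in UK and 105087, 115913 and 76417 in UR. The mean log2 level at T3 was 15.09 ± 1.98 (SD, n = 3) in NK and 16.85 ± 0.75 (SD, n = 3) in NR.

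The row of FGA, the gene of the Aα chain, had SDs of 0.32 to 1.36 on the log2 scale within groups. Its probes' strand is in doubt, and which form of the transcript they match was not tested. It read 385, 691 and 749 in N and 516, 374 and 836 in U at T1. At T2 it read 274, 629 and 151 in NK, 488, 453 and 320 in NR, 451, 462 and 301 in UK and 448, 238 and 349 in UR. At T3, FGA read 286, 259 and 1069 in NK, 626, 521 and 816 in NR, 374, 243 and 1486 in UK and 367, 381 and 1144 in UR. The pig on slide 6 was the highest in each T3 group.

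CRP, a pentraxin that binds phosphocholine on damaged cells and microbes, is given on the log2 scale. It read 11.91, 11.88 and 12.91 in N and 12.84, 12.10 and 12.09 in U at T1, with 1 high pig in each group. At T2 it read 12.56, 13.40 and 12.79 in NK, 12.28, 12.53 and 11.91 in NR, 12.20, 12.50 and 12 in UK and 11.64, 12.75 and 11.66 in UR. All 3 NR pigs lay below all 3 NK pigs, while UR and UK overlapped. At T3 it read 12.40, 12.57 and 12.07 in NK, 12.60, 12.88 and 12.05 in NR, 11.92, 11.83 and 11.71 in UK and 12.09, 12.15 and 12.21 in UR. Every UK pig lay below every NK pig and below every UR pig.

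C3, the central component of complement, with the same doubt about its probes, read 374, 484 and 450 in N and 553, 516 and 540 in U at T1, so that every U pig lay above every N pig. At T2, C3 read 559, 363 and 308 in NK, 635, 397 and 655 in NR, 511, 456 and 505 in UK and 602, 622 and 583 in UR. The UR pigs lay above the UK pigs, and NR and NK overlapped. At T3 the values were 103, 357 and 720 in NK, 554, 440 and 1116 in NR, 560, 225 and 775 in UK and 213, 424 and 875 in UR, all overlapping.

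AMBP, whose product is split into the heme-binding alpha-1-microglobulin and the protease inhibitor bikunin, read 260806, 275941 and 274077 in N and 271864, 266896 and 266896 in U at T1. At T2 it read 206926, 240154 and 251257 in NK, 267954, 258339 and 257630 in NR, 214820, 224505 and 236715 in UK and 231053, 243040 and 252447 in UR. Every NR pig lay above every NK pig. At T3 the values were 284350, 256071 and 223646 in NK, 268690, 210229 and 233301 in NR, 267601, 270353 and 240805 in UK and 290758, 264445 and 229766 in UR, and no pair of groups separated.

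**Figure D2:**
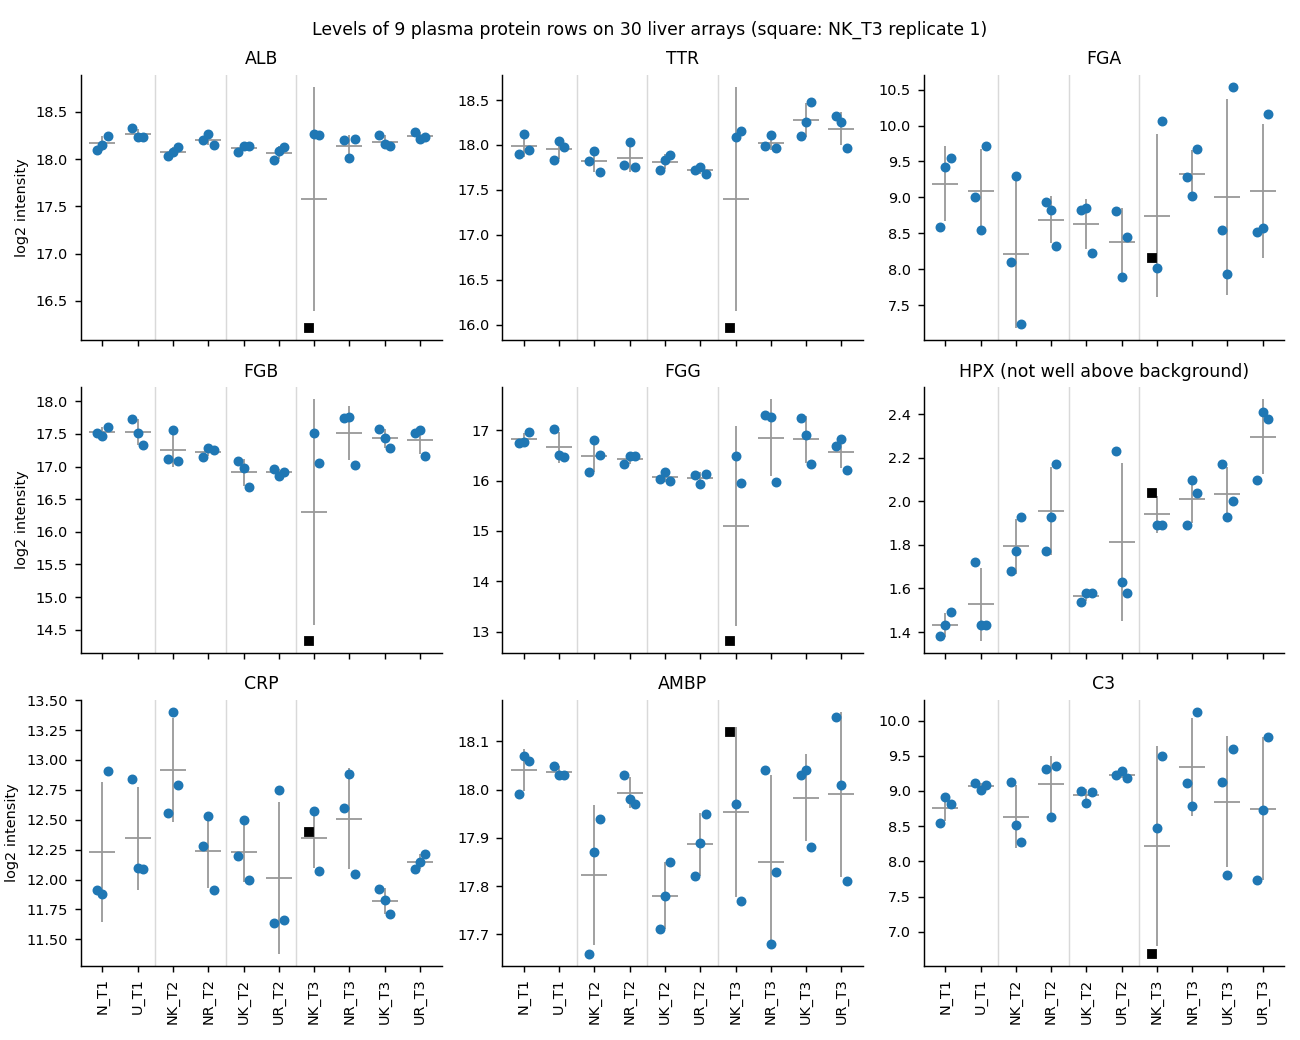
Log2 intensity in the authors' table (vertical axis) of 9 rows in the 10 groups of 3 pigs, with points for pigs and grey marks for group means with their SD; grey lines separate the 4 sets of arrays, between which levels are not compared. NK_T3 replicate 1 (black square) widens the SD of NK_T3 for ALB, TTR, FGB, FGG and C3.

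In none of the 11 comparisons within a set did a row of the table pass an adjusted p under 0.05 in limma's test with Benjamini-Hochberg adjustment over 19864 rows (0% of all rows called), so none of the 9 members did. At an unadjusted p under 0.05, 1 member passed in each of 2 comparisons and none in the others.

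Birth weight before restriction was compared at T1. C3 was higher in U than in N pigs by 0.31 (SE 0.14, adjusted p = 1 in limma's test), with mean log2 levels of 9.07 ± 0.05 (SD, n = 3) and 8.76 ± 0.19 (SD, n = 3). FGG and CRP had the next largest fitted changes, -0.17 and 0.11, with overlapping pigs, and CRP differed by 0.58 within slide 1 and -0.82 within slide 2. The C3 difference was 0.33 and 0.26 within these slides. C3 was the only 1 of 9 members whose groups did not overlap, beside 5.78% of all rows, and 2.86% of all rows had an unadjusted p under 0.05.

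Restriction in pigs of normal birth weight was compared at T2. CRP differed by -0.68 between NR and NK (SE 0.33, 95% interval -1.40 to 0.05, adjusted p = 0.698 in limma's test), with means of 12.24 ± 0.31 and 12.92 ± 0.44 (SD, n = 3). FGA and C3 differed by 0.48 (SE 0.45) and 0.47 (SE 0.24), ALB by 0.12 (SE 0.11) and AMBP by 0.17 (SE 0.12). The groups did not overlap for ALB, AMBP and CRP, 3 of 9 members beside 11.3% of all rows, and 7.27% of all rows had an unadjusted p under 0.05. Overlap was read on the authors' scale only. Relative to each array's 75th percentile, ALB differed by 0.20 (SE 0.18) and AMBP by 0.24 (SE 0.17). On that scale the 3 AMBP probes had SDs of 0.29, 0.32 and 0.30 in NR, against 0.03 for the row. With the slide as a block the CRP difference was -0.31, and on slide 5, which held 1 NR and 2 NK pigs, it was -0.56. The C3 difference was 0.27 with the block and 0.24 on slide 5. Leaving out 1 array moved FGA between -0.00 (without NK_T2 replicate 3) and 1.02 (without NK_T2 replicate 2), C3 between 0.28 (without NK_T2 replicate 3) and 0.71 (without NK_T2 replicate 1), and CRP between -0.86 (without NK_T2 replicate 1) and -0.43 (without NK_T2 replicate 2).

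In low birth weight pigs at T2, the largest differences between UR and UK were 0.30 (SE 0.24) for C3 and -0.25 (SE 0.45) for FGA, with an adjusted p of 1 for each in limma's test. CRP differed by -0.22 (SE 0.33), and by 0.55 and -0.86 within slides 1 and 2, each with 1 pig per group. C3 was the 1 of 9 members without overlap, beside 9.1% of all rows, and 4.17% of all rows had an unadjusted p under 0.05. The C3 difference was 0.29 and 0.40 within slides 1 and 2, and that of FGA -0.92 and -0.04. FGB and FGG differed by -0.00 and -0.01, with 95% intervals of -0.36 to 0.35 and -0.37 to 0.36.

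Averaged over the birth weights at T2, C3 was higher in restricted pigs by 0.38 (SE 0.17, adjusted p = 0.586 in limma's test) and CRP lower by 0.45 on the log2 scale, a fitted difference of -0.45 (SE 0.23). C3 was 1 of 9 members with an unadjusted p under 0.05, beside 8.43% of all rows. With the slide as a block, C3 differed by 0.30 and CRP by -0.24. The restriction difference itself differed between the birth weights by -0.73 for FGA (SE 0.64), 0.46 for CRP (SE 0.46) and -0.17 for both ALB and C3, with an adjusted p of 1 for each in limma's test, and 3.4% of all rows had an unadjusted p under 0.05.

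After refeeding, the comparison of NR with NK gave 7 of the 8 members other than HPX a fitted change above 0, with a median of 0.60, whereas 41.6% of all rows were above 0 and their median was -0.07. FGG differed by 1.76 (SE 0.80, 95% interval -0.01 to 3.53, adjusted p = 0.888 in limma's test), FGB by 1.21 (SE 0.66) and C3 by 1.12 (SE 0.77). No member's groups were free of overlap, beside 8.18% of all rows, and none had an unadjusted p under 0.05, beside 4.61%. Without NK_T3 replicate 1 the median of these 8 was 0.21, with 5 above 0. FGG was then 0.63 (SE 0.44), FGB 0.22, C3 0.35, ALB -0.13 instead of 0.56 and TTR -0.10 instead of 0.62. With the slide as a block, FGG was 1.07 (SE 1.14), FGB 0.78 and C3 0.53, and with the scan as a block, which sets the only array of scan 3 aside, FGG was 0.50 and C3 0.56. Between the 2 pigs on slide 6, FGG differed by 0.02, FGB by -0.03 and C3 by 0.63.

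The comparison of UK with NK at T3 shares the 3 NK pigs with the one before, so the 2 are not independent. Of the 8 members other than HPX, 7 were above 0, with a median of 0.62, beside 44.1% and -0.04 for all rows. FGG differed by 1.73 (SE 0.80), FGB by 1.13 (SE 0.66) and TTR by 0.88 (SE 0.48), and without NK_T3 replicate 1 by 0.60, 0.14 and 0.16, with 4 of 8 members above 0 and a median of 0.04. FGG was 1.39 with the slide as a block and 0.46 with the scan as a block, and within slides 4 and 6 it was 2.25 and 0.36. Slide 4 holds NK_T3 replicate 1, without which the FGG difference there was 0.41. CRP went the other way, at -0.52 (SE 0.23, adjusted p = 1 in limma's test), with means of 11.82 ± 0.11 and 12.35 ± 0.26 (SD, n = 3). It was -0.50 without that array, -0.61 with the slide as a block, and -0.65 and -0.36 within slides 4 and 6 (-0.74 on slide 4 without that array). CRP was the 1 of 9 members without overlap, beside 7.46% of all rows, and the 1 with an unadjusted p under 0.05, beside 3.44%.

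Between the low birth weight groups at T3, fitted differences reached at most 0.33 in size. UR was above UK in CRP by 0.33 (SE 0.23, adjusted p = 1 in limma's test), without overlap, as the 1 of 9 members beside 5.62% of all rows, and 1.91% of all rows had an unadjusted p under 0.05. Within slides 4 and 6, with 1 pig per group each, that difference was 0.31 and 0.50. FGG differed by -0.24 (SE 0.80, 95% interval -2.02 to 1.53). That SE pools the spread of all T3 groups, so NK_T3 replicate 1 enters it although no NK pig is compared. The SDs of FGG were 0.31 in UR and 0.46 in UK. With the scan as a block, which sets that array aside and also adjusts for slide 6, the SE was 0.19. Between UR and NR, the largest differences were -0.59 for C3 (SE 0.77) and -0.36 for CRP (SE 0.23), and ALB, at 0.10, was the 1 of 9 members without overlap, beside 6.97% of all rows, with 2.09% at an unadjusted p under 0.05. With the slide as a block, C3 and CRP differed by 0.22 and -0.12, so the C3 value changed sign. With the scan as a block, the C3 difference between UR and NR was -0.59 with an SE of 0.36.

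Averaged over birth weights at T3, FGG, FGB and C3 differed by 0.76, 0.59 and 0.51 between restricted and control pigs, and without NK_T3 replicate 1 by 0.19, 0.10 and 0.13. The differences between birth weights in this change were -2.01 for FGG (SE 1.13), -1.23 for FGB and -1.22 for C3, and without that array -0.87, -0.25 and -0.45. With the slide as a block they were -1.04, -0.68 and -0.11. Adjusted p-values of all members lay at 0.997 or above in both comparisons in limma's test, and 2.64% and 3.01% of all rows had an unadjusted p under 0.05.

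**Figure D3:**
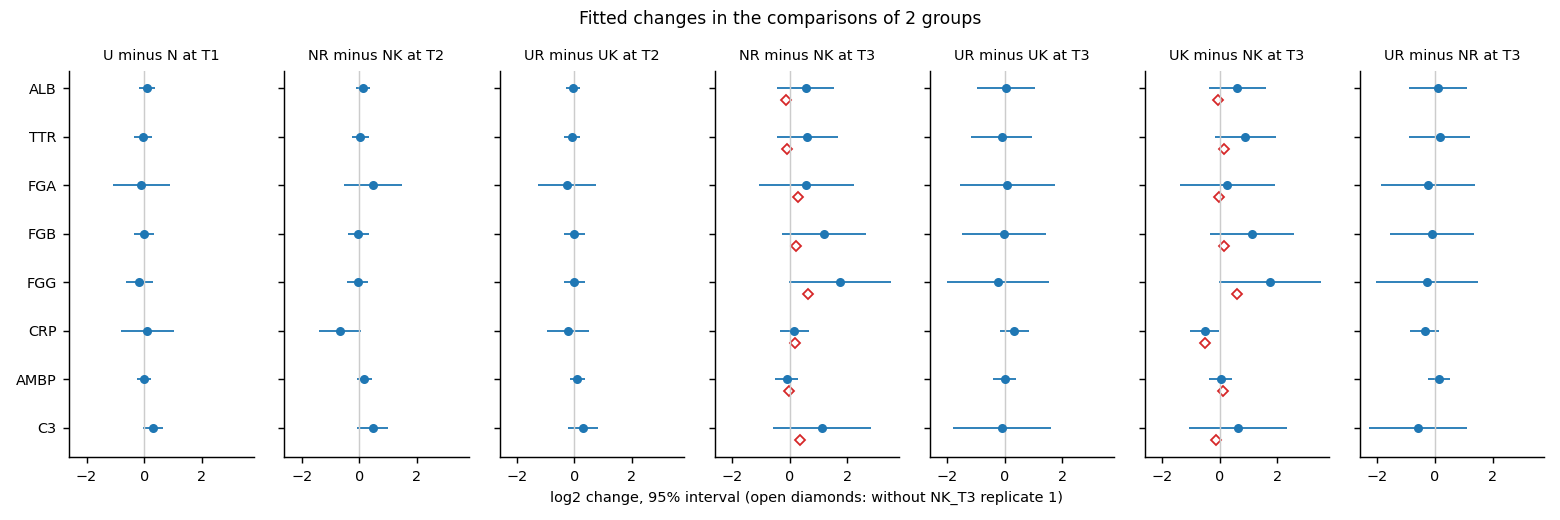
Fitted log2 change (horizontal axis) of 8 rows in the 7 comparisons of 2 groups, with 95% intervals from limma; open diamonds give the change without NK_T3 replicate 1 where that array takes part. Every interval but that of CRP in UK minus NK at T3 includes 0, and the FGG change of 1.76 in NR minus NK at T3 becomes 0.63 without the array. All T3 intervals use a spread pooled over the T3 groups, NK_T3 replicate 1 included.

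Levels at different time points were compared in the scanner files, which share a single scaling over all 30 arrays, on the log2 signal minus the array's 75th percentile. Of the 24 member probes kept by the filter on dim probes, 1 was called between T2 and T3 in the control pigs NK and UK, where 5.57% of 41061 probes were (3.15% lower at T3). The CRP probe PigEx0010270 fell by 0.77 on that scale (SE 0.23, adjusted p = 0.0498 in limma's test), from 4.23 ± 0.41 to 3.46 ± 0.31 (SD, n = 6 each). At T2 this probe read 4.12, 4.88 and 4.37 in NK and 4.07, 4.30 and 3.64 in UK, and at T3 3.40, 3.88 and 3.34 in NK and 3.77, 3.35 and 3.03 in UK, so the time points overlapped, as for all 24 member probes (4.05% of all probes did not). At an unadjusted p under 0.05 there were 4 member probes, 3 of CRP and FGG PigEx0022142, beside 20.8% of probes.

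The other CRP probes, PigEx0010269 and PigEx0010271, differed by -0.69 and -0.78 (adjusted p = 0.0752 and 0.084 in limma's test). The CRP row given above followed PigEx0010269 on 29 arrays and the called probe PigEx0010270 on only 1. When the replicate number entered as a block, all 3 CRP probes were called (adjusted p = 0.0229 to 0.038 in limma's test). The call of PigEx0010270 was lost when the slide was a block, at -0.40 (adjusted p = 0.419 in limma's test), or the scan, at -0.48 (adjusted p = 0.263). Time point, slide and scan were largely tied. That call was lost as well with no filter on dim probes (adjusted p = 0.081 in limma's test), with quantile normalization (adjusted p = 0.0562) and with normexp and quantile normalization (adjusted p = 0.0585). It was also lost without NK_T2 replicate 2 or 3, UK_T2 replicate 1 or 2, NK_T3 replicate 1 or 3, or UK_T3 replicate 2 or 3, with adjusted p-values of 0.0804 to 0.125 in limma's test. The C3 probe PigEx0021721, at -0.51 in the shared fit, was called with the slide as a block, at -1.14 (adjusted p = 0.0362 in limma's test). The fit assumes 1 spread for all time points, whereas the median SD of the table's rows was 0.31 to 0.44 in the T3 groups and 0.23 to 0.30 in the others.

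**Figure D4:**
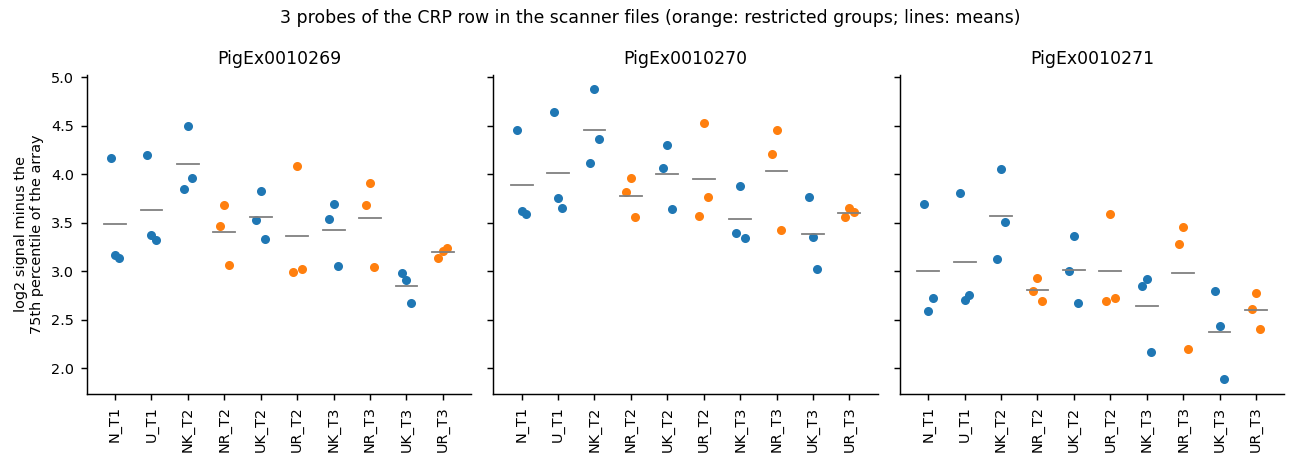
Log2 signal of the 3 CRP probes minus the array's 75th percentile (vertical axis) in the 10 groups, with points for the 3 pigs, orange for restricted groups, and lines for group means. For PigEx0010270 the mean of the 6 control pigs is 4.23 at T2 and 3.46 at T3.

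In the restricted pigs NR and UR, the 3 CRP probes differed between T2 and T3 by -0.01, -0.05 and -0.12, and no member probe was called, beside 0.981% of probes, or had an unadjusted p under 0.05, beside 13.9%. No test compared the control with the restricted pigs in this. From T1 to T2, 0 of 24 member probes were called in either control pigs (0.229% of probes) or restricted pigs (1.42%). FGG PigEx0022142 alone had an unadjusted p under 0.05 in each, beside 9.76% and 12.1% of probes. Every SE of this fit pools the spread of all 30 arrays, so NK_T3 replicate 1 enters comparisons without T3 pigs. FGB PigEx0025024 differed by -0.55 in control and -0.57 in restricted pigs (SE 0.44 each). With only T1 and T2 fitted, the SE in restricted pigs was 0.13 (adjusted p = 0.0415 in limma's test). FGG PigEx0022141 differed by -0.50 and -0.48 (SE 0.39 each). The 3 CRP probes differed by 0.27, 0.28 and 0.24 in control pigs. For birth weight at T2, which the table cannot give, no probe was called between UK and NK or between UR and NR. An unadjusted p under 0.05 was seen for no member probe, and for 1.91% and 1.41% of all probes. CRP differed by -0.54, -0.46 and -0.55 over its 3 probes between UK and NK, with overlap in 2 of them. The FGA probes differed by more, at 0.80, 0.70 and 0.50, with SEs of 0.59 to 0.72 and overlap in all 3. Between UK and NK, 7 of 24 member probes did not overlap, beside 12.2% of all probes, and they went both ways. Higher in UK were 4 (ALB PigEx0003181, TTR PigEx0042801, AMBP PigEx0053732 and PigEx0053733), beside 6.15% of all probes. Lower were 3 (FGG PigEx0022141 and PigEx0022142, CRP PigEx0010269), beside 6.01%. Probes of 1 gene count separately. The NK pigs lay on slides 1 and 5 and the UK pigs on slides 1, 2 and 4, so birth weight and slide are partly tied. Between UR and NR 3 of 24 did not overlap, beside 7.23%. The C3 probes PigEx0021721 and PigEx0021722 were higher in UR than NR, by 0.30 (SE 0.54) and 0.54 (SE 0.45), without overlap, and PigEx0021723 by 1.04 (SE 1.07), with overlap. The third probe without overlap, FGB PigEx0025024, went the other way, at -0.36 (SE 0.62).

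Deviations of pigs from their group means, which do not depend on group differences, described how the members moved together. FGB and FGG had a Pearson correlation of 0.97 over 30 arrays and 0.90 over 29 without NK_T3 replicate 1. FGG was the closest of 19863 rows to FGB in both cases, and FGB the closest to FGG over 30 arrays and the sixth closest over 29. The correlation was 0.92 over the 6 T1 arrays, 0.73 over 12 at T2 and 0.96 over the 11 T3 arrays other than NK_T3 replicate 1. Arrays share their slide and scaling, so these are descriptions.

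The FGA row correlated at 0.10 with FGB and -0.01 with FGG over 30 arrays, and at -0.26 and -0.39 over 29. With its probes' strand in doubt and the form of the transcript they match not tested, these values may not describe the Aα chain transcript. The nearest member to FGA was C3, at 0.63 over 30 arrays and 0.65 over 29, and the closest rows were ENSP00000363052, at 0.90, and ENSP00000269593, at 0.89. After FGG, the row closest to FGB was ENSP00000327268, at 0.97, and after FGB the row closest to FGG was ENSP00000425915, at 0.95, both over 30 arrays. Over 29 arrays other rows took these places. They were ENSP00000384101, at 0.89, for FGB, and ENSP00000256429 and ENSP00000380122, at 0.92 and 0.91, for FGG. CRP correlated with FGB at 0.17 and with FGG at 0.22 over 30 arrays, and at 0.54 and 0.51 over 29. ALB and TTR were at 0.93 over 30 arrays and -0.20 without NK_T3 replicate 1, so their likeness rested on that array. FGB and C3 went from 0.40 to -0.56, FGG and C3 from 0.29 to -0.61 and ALB and AMBP from -0.29 to 0.61.

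**Figure D5:**
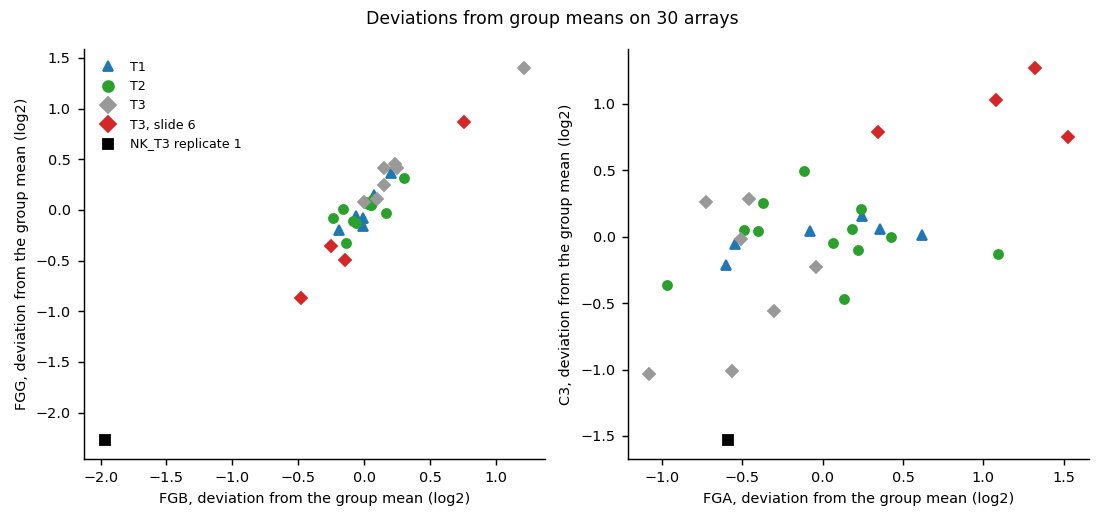
Deviation of each of 30 pigs from its group mean (log2) for FGB against FGG (left) and FGA against C3 (right), with symbols for time points, red for slide 6 and a black square for NK_T3 replicate 1. FGB and FGG lie along 1 line with a correlation of 0.97, and for FGA and C3, at 0.63, the 4 arrays of slide 6 lie at the upper right.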

How the data were processed

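The intensity values of the table were made by the authors, and no source used here states how. Compared with the scanner files, each row followed the median of 3 consecutively numbered probes for 96% of the 19864 rows, within a root mean square difference of 0.1 on the log2 scale over 24 arrays. The columns of N_T1 replicates 1, 2 and 3 matched the scanner files of replicates 2, 3 and 1. The scanner signal is an intensity, background subtracted per the file headers. Values were taken as log2 of the deposited intensity.

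Each time point was fitted with limma 3.58.1 in R 4.3.3 with a mean per group and no filter, with the Benjamini-Hochberg adjustment at 0.05 over all rows. In the scanner files, all 30 arrays entered 1 fit on log2 signal minus the 75th percentile, over 41061 probes. A probe was kept if some group had it well above background in each of its 3 pigs. Reading all 3 probes of each member there, rather than only rows equal to a single probe, was decided after the data were seen, as was the T1 replicate block with scanner file numbers.

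The members and lists were chosen with earlier results of these data known. All members are named, with pig values for the 8 measured, a range for HPX and none for TF. The table names rows only by identifiers, and 0 of these were found in the reference tables given, so the other gene and marker lists planned were not used, nor promoter sequences. On simulated data with 200 of 19864 rows shifted by 2 on the log2 scale, 53.5%, 77.5% and 51.0% of them were called for U minus N at T1, NR minus NK at T2 and NR minus NK at T3. For a shift of 1 these were 0%, 26.0% and 8.50%. The simulated noise was independent between rows and arrays, without shifts shared by a slide or an array, so these shares may not hold for the real data.

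Same-numbered pigs deviated together, with every correlation over 0.1, in 6 of 13 pairs of groups with the table's numbers, among them NR with NK (lowest 0.168), UR with UK (0.153) and UR with NR (0.353) at T3. All T3 replicates numbered 3 lay on slide 6, and their correlations were 0.517 to 0.658, so number and slide cannot be told apart there. With the scanner file numbers, N with U at T1 had a lowest correlation of 0.247. The pairing comes from these correlations, and no label says that a number marks a litter. Alternatives were other fits, blocks, filters, scalings, array weights and leaving out each array.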

Additional observations from a re-analysis of the deposited data

How the results depend on the processing

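No member was called in the 11 comparisons within a set under any alternative run, with the replicate number as a block (0 rows called), without it, or with any array left out. Rows called were 2 for NR minus NK at T2 and 1 for UK minus NK at T3 in a fit of all 30 arrays, 1 for the averaged restriction difference at T2 with a trended robust variance, 1 for the difference between birth weights at T2 in the scanner files and 1 for NR minus NK at T3 with array weights. With an array left out, 0 to 3 rows were called for NR minus NK at T2, and 0 to 1 for the difference between birth weights at T2 and at T3, UR minus UK at T3 and UK minus NK at T3. In the scanner files, control pigs from T1 to T2 had 94 called probes, and 144 with only these time points, 170 with a replicate block, 55 with slide and 287 with scan as a block, 33 without a filter, 143 with normexp and 2887 with array weights (1 member probe), with 14 to 131 on leaving out an array. From T2 to T3 they had 2287, and 3983, 5183 and 7716 with slide, scan and weights, and 1054 to 2525 with an array left out. Member probes called there were 3 with the replicate block or weights, 0 with scan as a block, without a filter, with quantile normalization or normexp, and 0 to 1 with an array left out. Restricted pigs from T2 to T3 had 403, and 1269, 2891, 204 and 5343 with slide, scan, no filter and weights (2 member probes with weights), and 121 to 440 with an array left out. From T1 to T2 they had 581, and 231 and 2339 without a filter and with weights, and 82 to 689 with an array left out. There, 1 member probe, FGB PigEx0025024, was called with only these time points or the scan as a block. UK minus NK at T2 had 1 probe with weights, and UR minus NR 0 to 2 with an array left out. The replicate block called no member other than the CRP probes. The cause of these shifts was not tested. With 3 arrays a group, precision is limited, and the HPX probes lay at background.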
